A study of Mus musculus with 27 samples.

Results

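The 10 miRNAs described here are mature products of the miR-17/92 cluster and of its 2 related clusters, miR-106b/25 and miR-106a-363. The miR-18 and miR-363 products and the opposite strands of the hairpins are not among the 10. The 10 were picked by name from the table of small-RNA counts: mmu-miR-17-5p, mmu-miR-19a-3p, mmu-miR-20a-5p, mmu-miR-19b-3p and mmu-miR-92a-3p of miR-17/92, mmu-miR-106b-5p, mmu-miR-93-5p and mmu-miR-25-3p of miR-106b/25, and mmu-miR-106a-5p and mmu-miR-20b-5p of miR-106a-363. They make up 10 of the 1842 entries of the table, and all 10 were among the 1470 entries with enough counts to be tested. The study followed miRNAs in the cortex of wild-type C57BL6 mice aged 7 to 8 weeks after occlusion of the middle cerebral artery (MCAO), which models ischaemic stroke and in which a nylon suture was pushed up from the right external carotid artery to block the artery for 35 min and then withdrawn. Cortex was taken 3, 6, 12 or 24 h after blood flow returned, from the occluded (ipsilateral) and from the opposite (contralateral) hemisphere, and from sham mice that had the same anaesthesia and exposed arteries but no filament. That gives 9 groups of 3 libraries, 27 in all, and the 3 replicates of a group come from animals operated on different days. The labels do not give the hemisphere of the sham tissue, nor say whether the 2 hemispheres of a replicate came from 1 animal, and the tissue is whole cortex with all its cell types, so that fewer cells of a type and less RNA per cell cannot be told apart.

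Clustered miRNAs are cut from 1 primary transcript by the enzymes Drosha and Dicer, and 1 strand of each hairpin is usually loaded into an Argonaute protein. The seed, bases 2 to 8 of the mature strand, pairs with target mRNAs, so miRNAs with the same seed have largely overlapping targets. The miR-17/92 cluster is known as a driver of cell growth and survival in tumours and in development, where it is switched on by MYC and E2F factors. In the brain it is best known from neural progenitors, and its miR-17 products target the growth arrest gene Cdkn1a.

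The mature sequences are shown because the 10 miRNAs fall into 3 seed groups that cut across the 3 clusters, and because several of them differ by so few bases that their reads could be mistaken for each other. They are taken from RefSeq (GRCm38.p6), where all 10 were found, and are written 5′ to 3′ with the seed in capitals. The first 6 carry the miR-17 seed, the next 2 the miR-19 seed and the next 2 the miR-92 seed.
miR-17-5p: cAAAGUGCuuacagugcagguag
miR-20a-5p: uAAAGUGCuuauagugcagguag
miR-106b-5p: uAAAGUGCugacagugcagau
miR-93-5p: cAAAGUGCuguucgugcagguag
miR-106a-5p: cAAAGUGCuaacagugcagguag
miR-20b-5p: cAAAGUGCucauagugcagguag
miR-19a-3p: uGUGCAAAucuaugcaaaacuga
miR-19b-3p: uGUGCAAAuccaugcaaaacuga
miR-92a-3p: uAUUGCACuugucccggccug
miR-25-3p: cAUUGCACuugucucggucuga
For contrast, the miR-18 product of the same primary transcript, which is not among the 10, has a seed of its own, and miR-92b-3p, from another locus, carries the miR-92 seed.
miR-18a-5p: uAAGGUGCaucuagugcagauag
miR-92b-3p: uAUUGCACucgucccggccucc

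Counted from 1 at the 5′ end, miR-106a-5p differs from miR-17-5p by U10A alone, and miR-19b-3p differs from miR-19a-3p by U11C alone. The other close pairs are miR-20a-5p, which differs from miR-17-5p by C1U and C12U, miR-20b-5p, which differs from miR-20a-5p by U1C and U10C, and miR-25-3p, which differs from miR-92a-3p by U1C, C14U and C18U over the 21 shared positions and is 1 base longer. No source used here gives how reads that fit more than 1 entry were counted, so the split between miR-17-5p and miR-106a-5p, and between miR-19a-3p and miR-19b-3p, is uncertain. The miR-17/92 products lie on the plus strand of chromosome 14 within 813 bp (chr14:115043684-115044496, GRCm38) in exon 2 of Mir17hg, their non-coding host transcript. The miR-106b/25 products lie on the minus strand of chromosome 5 within 476 bp (chr5:138165332-138165807) in intron 13 of the Mcm7-201 transcript, where Mcm7 encodes a subunit of the helicase that opens DNA for replication; miR-93 and miR-25 also fall in exon 1 of the Mcm7-202 transcript. The X-linked cluster spans 710 bp on the minus strand (chrX:52741854-52742563) outside any annotated host gene. Mature miR-19b-3p and miR-92a-3p are encoded both on chromosome 14 and on the X chromosome with the same sequence, so their counts cannot be assigned to 1 of the 2 clusters.

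The libraries held between 856591 and 1903416 counts, and the TMM factors that scale them lay between 0.676 and 1.51. Levels are given as CPM, that is, counts relative to the TMM-scaled size of the library. Summed miRNAs of the epithelial list reached 26930 CPM in 1 sham library and 23807 CPM in 1 ipsilateral 6 h library, against 345 to 926 CPM in the other 25.

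The 10 miRNAs, which are of nearly equal length (21 to 23 bases), differed far more from each other than across the groups, where the highest group mean was 1.39 to 2.19 times the lowest. miR-92a-3p was the most abundant, at 2562 ± 541 CPM (mean ± SD over 27 libraries), which ranked it number 53 of the 1842 entries, and it took 71.7% of the counts of the 10. Next came 2 products of the Mcm7 intron, miR-25-3p at 518 ± 113 CPM and miR-93-5p at 324 ± 64.1 CPM, with 14.5% and 9.18% of the counts of the 10. Below these lay miR-19b-3p at 55.2 ± 13.4 CPM, miR-106b-5p at 42.5 ± 11.4 CPM and miR-17-5p at 22.5 ± 7.63 CPM. The lowest were miR-106a-5p at 14.5 ± 5.82 CPM, miR-20a-5p at 11.6 ± 5.10 CPM, miR-19a-3p at 7.57 ± 2.59 CPM and miR-20b-5p at 6.66 ± 2.91 CPM. The name-giving miR-17-5p was thus counted far less often than its cluster mate miR-92a-3p, which is also encoded on the X chromosome. How evenly the library preparation captured the different sequences was not tested. The levels, and the shares of seed groups and strands below, therefore compare counts and not amounts in the tissue.

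In the order of levels, miR-92a-3p exceeded miR-25-3p, miR-25-3p exceeded miR-93-5p and miR-93-5p exceeded miR-19b-3p in all 27 libraries. The ranges of these neighbours did not overlap in the sham libraries either, and the same was true of miR-106b-5p and miR-17-5p. Neighbours in the rest of the order overlapped: miR-19b-3p was above miR-106b-5p in 21 of 27 libraries, miR-17-5p above miR-106a-5p in 22, miR-106a-5p above miR-20a-5p in 18, miR-20a-5p above miR-19a-3p in 19, and miR-19a-3p above miR-20b-5p in 13. Depth sets the precision of the scarce members. For miR-19a-3p, whose libraries held 3 to 22 counts, counting error alone gives a coefficient of variation of 34.7%, and the observed one over the 27 libraries was 34.3%. The libraries of miR-20b-5p held 1 to 21 counts, with 37.0% from counting error alone and 43.8% observed. For miR-92a-3p, with 1989 to 4638 counts, counting error gives 1.89%, against 21.1% observed.

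**Figure D1:**
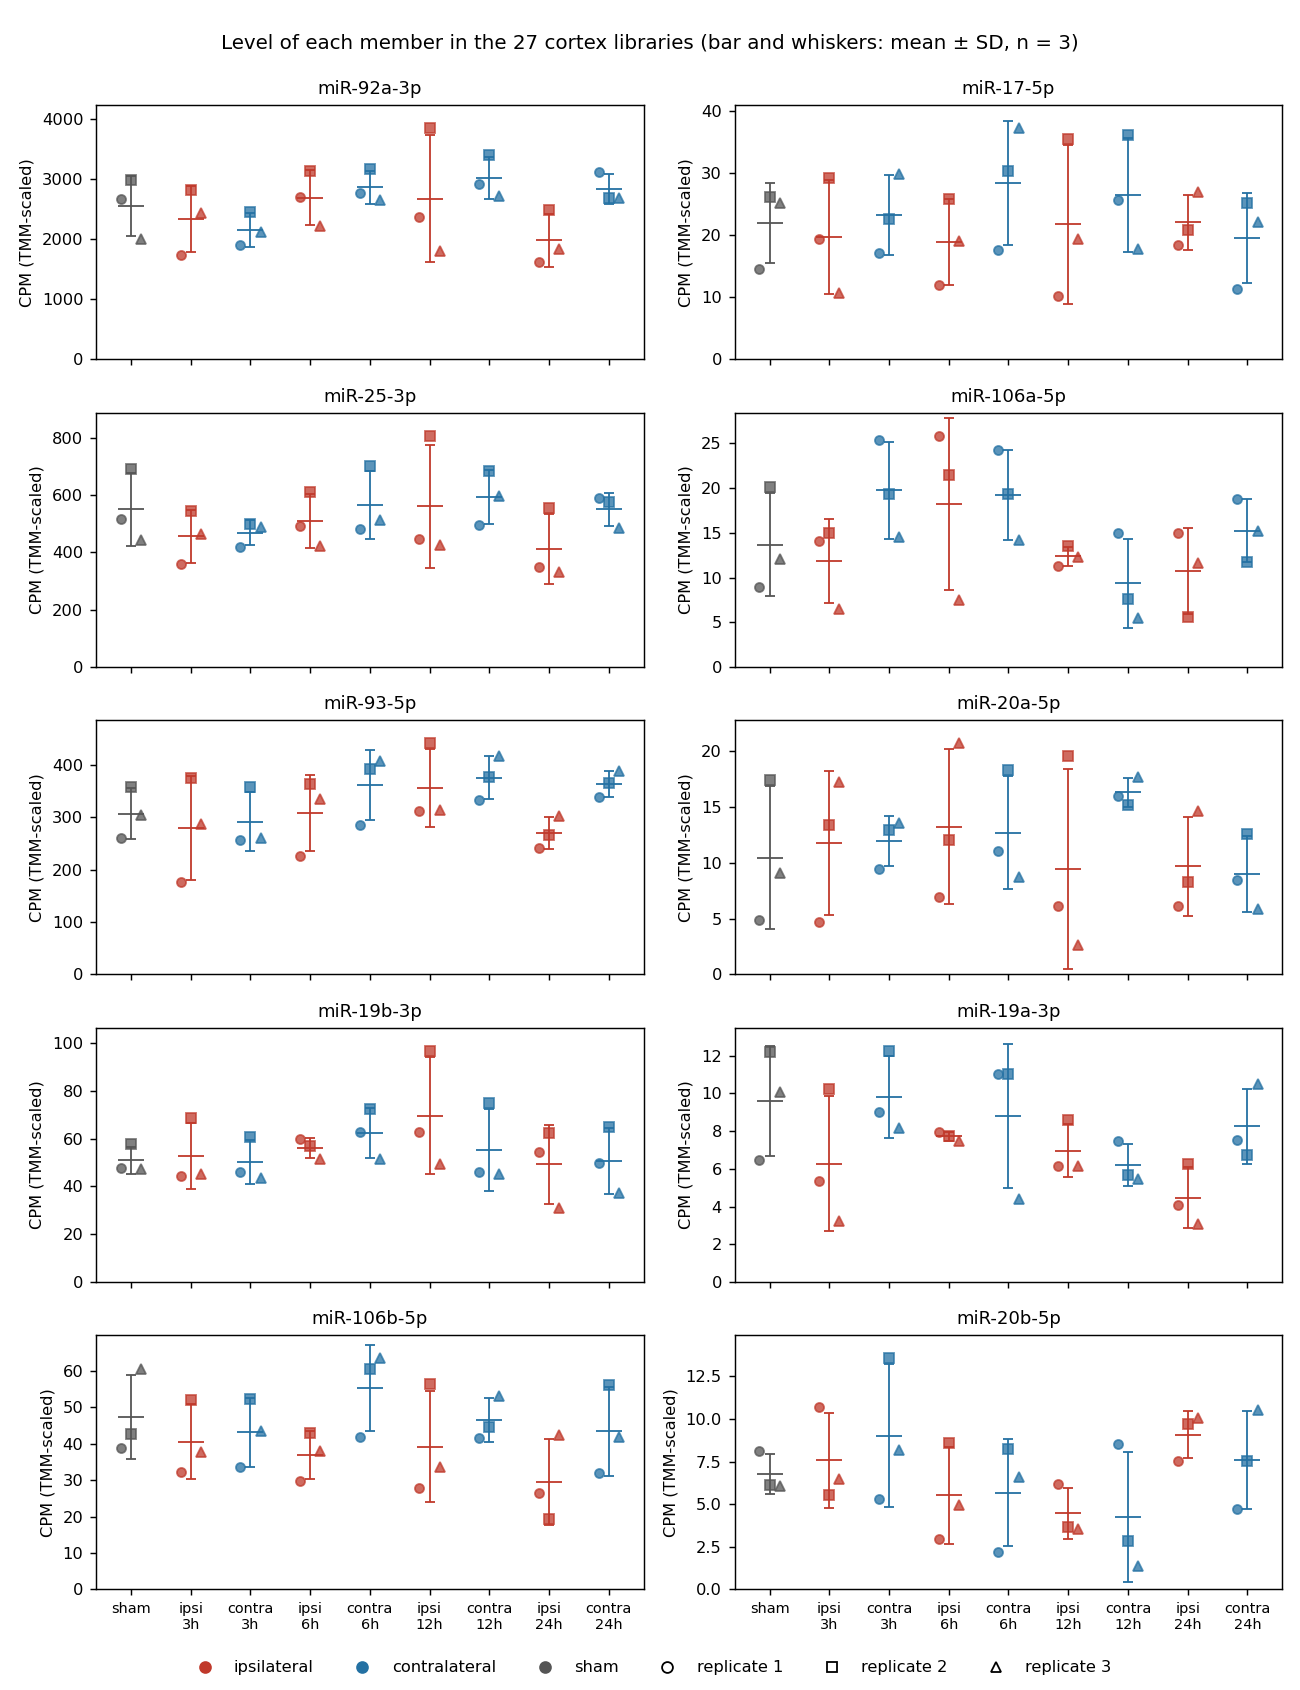
Level of each of the 10 miRNAs in CPM (linear axes from 0) in the 9 groups, in order of level; symbols are single libraries, shaped by replicate, and bars with whiskers are means ± SD of 3. The hemispheres overlap for all 10 at 3, 6 and 12 h, and at 24 h they overlap for all but miR-92a-3p, miR-93-5p and miR-19a-3p.

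Within the seed groups the counts were as uneven. miR-93-5p held 75.7% of all counts with the miR-17 seed, followed by miR-106b-5p with 9.93% and miR-17-5p with 5.32%. The only entry outside the 10 with that seed was miR-6383 at 4.60 CPM. miR-19b-3p held 87.8% of the counts with the miR-19 seed, and miR-19a-3p held the other 12.2%. With the miR-92 seed, most of the counts lay outside the clusters: miR-92b-3p, at 13165 CPM, held 80.7%, against 15.9% for miR-92a-3p and 3.24% for miR-25-3p.

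The first question was whether the 10 miRNAs differed between the occluded and the opposite hemisphere at each time. None of the 10 passed the test at 3, 6 or 12 h (edgeR quasi-likelihood test with Benjamini-Hochberg adjustment over 1470 entries), and none had an unadjusted p under 0.05. Among all entries tested, 0% passed at 3 h, 0% at 6 h and 4.35% at 12 h, and 3.95%, 4.35% and 11.2% had an unadjusted p under 0.05. The groups of 3 overlapped for every one of the 10 at these times, where 9.05%, 10.7% and 8.71% of all entries had groups that did not overlap. The median log2 fold change of the 10 was -0.07 at 3 h, -0.16 at 6 h and -0.08 at 12 h, beside 0.01, 0.05 and -0.03 over all entries. Over the 286 entries with a mean of at least 100 CPM it was -0.03, -0.12 and -0.11.

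miR-92a-3p shows what these early comparisons look like. At 12 h it stood at 2365, 3841 and 1798 CPM in ipsilateral cortex and at 2908, 3393 and 2720 CPM in contralateral cortex. The ipsilateral libraries thus held the highest and the lowest of the 6 values. Over 3 to 12 h the 95% intervals of the log2 fold change of miR-92a-3p reached from -0.70 to 0.64, those of miR-25-3p from -0.72 to 0.53 and those of miR-93-5p from -0.78 to 0.49. For the scarce members the intervals were wider and reached from -2.04 to 1.16 for miR-20a-5p, whose 3 ipsilateral libraries at 12 h held 6.16, 19.6 and 2.65 CPM, against 16.0, 15.2 and 17.7 CPM in contralateral cortex.

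At 24 h again none of the 10 passed the test, and none had an unadjusted p under 0.05, while 13.3% of all entries passed (11.8% higher and 1.43% lower in ipsilateral cortex) and 23.8% had such an unadjusted p. The groups of 3 did not overlap for 3 of the 10, all lower in ipsilateral cortex: miR-92a-3p, miR-93-5p and miR-19a-3p. Over all entries that share was 28.2%, so the 10 stood close to the background. The median log2 fold change of the 10 was -0.42, with 7 of 10 below 0, beside 0.08 over all entries and -0.46 over the 286 entries with a mean of at least 100 CPM, of which 22.4% lay above 0.

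Among the members with the miR-92 seed, miR-92a-3p held 1621, 2474 and 1833 CPM in ipsilateral cortex at 24 h, against 3115, 2685 and 2680 CPM in contralateral cortex. The highest ipsilateral library lay just under the lowest contralateral one. The log2 fold change was -0.52 ± 0.26 (SE, 95% interval -1.04 to 0.01, adjusted p = 0.219, edgeR). miR-25-3p held 350, 554 and 331 CPM in ipsilateral cortex and 590.5, 575 and 485 CPM in contralateral cortex. Here the groups overlapped through replicate 2 of ipsilateral cortex, and the log2 fold change was -0.42 ± 0.28 (adjusted p = 0.378, edgeR). Outside the clusters, miR-92b-3p had a log2 fold change of -0.75 ± 0.28 (adjusted p = 0.083, edgeR), and the scarce miR-32-5p had -0.26 ± 0.54 (adjusted p = 0.829). miR-367-3p, with 120 counts over all libraries, was not tested.

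Of the members with the miR-17 seed, miR-93-5p held 242, 266 and 302 CPM in ipsilateral cortex and 338.1, 365 and 388 CPM in contralateral cortex. The 2 groups were tight and separate, with a log2 fold change of -0.43 ± 0.27 (95% interval -0.99 to 0.13, adjusted p = 0.356, edgeR). miR-106b-5p held 26.6, 19.4 and 42.4 CPM in ipsilateral cortex, against 32.02, 56.3 and 42.0 CPM in contralateral cortex, and its log2 fold change was -0.56 ± 0.34 (adjusted p = 0.339, edgeR). miR-17-5p held 18.4, 20.8 and 27.01 CPM in ipsilateral cortex and 11.3, 25.2 and 22.2 CPM in contralateral cortex, a log2 fold change of 0.17 ± 0.44 (adjusted p = 0.872, edgeR). The other miR-17 seed members overlapped widely too, with log2 fold changes of 0.06 ± 0.57 for miR-20a-5p, -0.50 ± 0.44 for miR-106a-5p and 0.28 ± 0.46 for miR-20b-5p.

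The 2 members with the miR-19 seed differ in level, and the difference between their fold changes at 24 h was not tested. miR-19a-3p held 4.10, 6.24 and 3.09 CPM in ipsilateral cortex, against 7.53, 6.72 and 10.5 CPM in contralateral cortex. These are 6, 9 and 4 counts against 8, 8 and 9 counts, and the log2 fold change was -0.83 ± 0.41 (adjusted p = 0.227, edgeR). miR-19b-3p, which differs from it by 1 base, held 54.6, 62.4 and 30.9 CPM in ipsilateral cortex and 49.9, 64.7 and 37.3 CPM in contralateral cortex. Its log2 fold change was -0.04 ± 0.33 (95% interval -0.72 to 0.64, adjusted p = 0.959, edgeR).

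**Figure D2:**
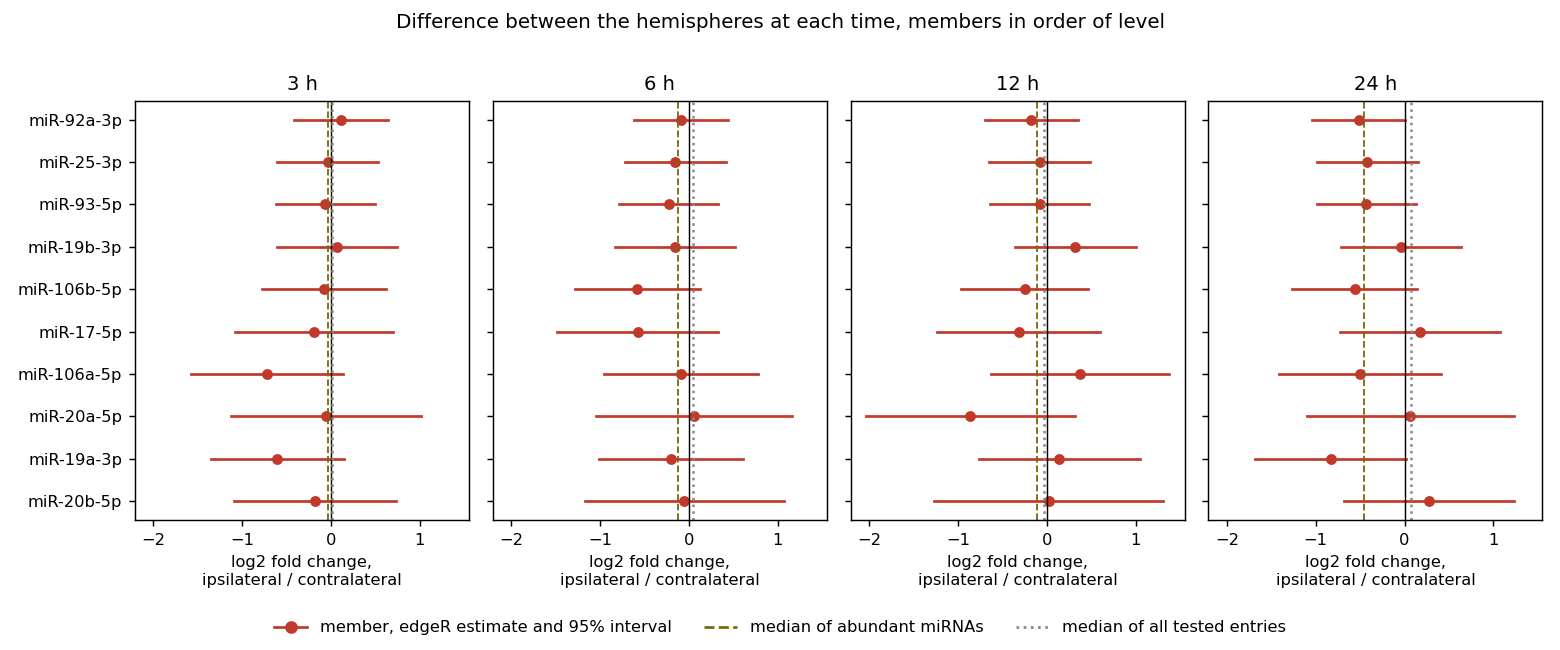
Log2 fold change of each of the 10 miRNAs, ipsilateral over contralateral, at 3, 6, 12 and 24 h (points: edgeR estimates; lines: 95% intervals; dashed and dotted lines: medians of the abundant miRNAs and of all tested entries). At 24 h most points lie left of 0, near the dashed line at -0.46, and all 10 intervals include 0.

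The scaling and the day of surgery bear on these values at 24 h. With the day of surgery as a block in the fit, miR-92a-3p passed the test (log2 fold change -0.55 ± 0.18, adjusted p = 0.0352, edgeR) and the other 9 did not, while the share of all entries that passed was 20% and the share that passed as lower was 6.53%. Within the 3 days, ipsilateral minus contralateral log2 CPM of miR-92a-3p was -0.94, -0.12 and -0.55, that of miR-93-5p -0.48, -0.46 and -0.36, that of miR-25-3p -0.75, -0.05 and -0.55, and that of miR-19a-3p -0.85, -0.12 and -1.67. That of miR-106a-5p was below 0 on all 3 days too, at -0.33, -1.05 and -0.40. The rest of the 10 went both ways. The values were 0.67, -0.28 and 0.27 for miR-17-5p, -0.46, -0.59 and 1.23 for miR-20a-5p, and 0.13, -0.05 and -0.28 for miR-19b-3p. For miR-106b-5p they were -0.27, -1.52 and 0.0086, and for miR-20b-5p 0.60, 0.33 and -0.09. When libraries were scaled by their totals alone, the log2 fold change was -0.05 for miR-92a-3p, 0.05 for miR-93-5p and 0.06 for miR-25-3p. That scaling moved the median of all entries to 0.57, and the median of the 10 to 0.05. Relative to all entries the median of the 10 was -0.50 with TMM scaling and -0.51 with totals alone, and relative to the abundant miRNAs it was 0.03 and 0.03.

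Summed over the 10, the level was 2793 ± 564 CPM in ipsilateral cortex at 24 h and 3895 ± 251 CPM in contralateral cortex, with 3569 ± 644 CPM in sham cortex (SD over 3 libraries each). None of the 5 neuronal miRNAs passed the test between the hemispheres either. Their sum was 72608 to 105866 CPM in ipsilateral cortex at 24 h, against 113041 to 167131 CPM in contralateral cortex. All 5 (miR-124-3p, miR-128-3p, miR-9-5p, miR-138-5p and miR-132-3p) had log2 fold changes below 0, with a median of -0.42, and none was at 0 counts in any of these libraries. The erythrocyte list, 3 of its 5 entries in the table, gave 139 to 195 CPM in ipsilateral cortex and 186 to 229 CPM in contralateral cortex, and the leukocyte and microglia list of 6 gave 1032 to 1575 CPM in ipsilateral cortex and 1442 to 2073 CPM in contralateral cortex. The single leukocyte and microglia entries went both ways at 24 h. The 5 tested ran from -0.63 to 0.62 between the hemispheres (median log2 fold change -0.24) and from -0.81 to 1.15 in ipsilateral cortex against sham, and none passed. Vessel miRNAs summed to 9439 to 16779 CPM in ipsilateral cortex and 15323 to 39470 CPM in contralateral cortex, those of oligodendrocytes to 977 to 1788 CPM in ipsilateral cortex and 1787 to 2512 CPM in contralateral cortex, and those of the choroid plexus to 2244 to 2822 CPM in ipsilateral cortex and 2833 to 5374 CPM in contralateral cortex. The choroid plexus sum is mostly miR-204-5p (log2 fold change -0.63 ± 0.33); miR-448-3p had -1.25 and miR-211-5p 0.96. miR-211-5p held 83.3, 36.8 and 18.5 CPM in ipsilateral cortex at 24 h, against 25.4, 23.5 and 22.2 CPM in contralateral cortex and 21.0, 19.2 and 18.2 CPM in sham cortex. It passed the test against sham (log2 fold change 1.24 ± 0.42, adjusted p = 0.0495, edgeR), although the groups overlap. That call was made under 6 of 13 alternatives: without replicate 1 of ipsilateral cortex the value was 0.51 (adjusted p = 0.647, edgeR), and without replicate 1, 2 or 3 of sham the adjusted p was 0.124, 0.159 and 0.135. The epithelial list of 7 ran the other way from most lists, with 496 to 926 CPM in ipsilateral cortex at 24 h and 372 to 460 CPM in contralateral cortex, which do not overlap. None of its 5 tested entries passed between the hemispheres (median log2 fold change 0.14, from -0.67 to 1.26), and 4 of the 5 passed as lower against sham, where 1 sham library held the high sum given above. All these sums depend on the TMM scaling. Between the hemispheres at 24 h, the median log2 fold change of the abundant miRNAs was -0.46 with TMM and 0.03 with library totals alone. The part of these cell types in the values of the 10 miRNAs was not tested.

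Against sham cortex, none of the 10 passed the test in ipsilateral cortex at any time (edgeR), where 0%, 0%, 5.44% and 12.7% of all entries passed at 3, 6, 12 and 24 h. At 3, 6 and 12 h none of the 10 had an unadjusted p under 0.05 (5.85%, 3.67% and 14.4% of all entries) and the groups overlapped for all 10 (10.5%, 9.05% and 14.8% of all entries did not). The comparisons share the 3 sham libraries. At 24 h the median log2 fold change of the 10 was -0.27, beside -0.02 over all entries and -0.38 over the abundant ones. The member with the smallest p was miR-19a-3p, with 4.10, 6.24 and 3.09 CPM in ipsilateral cortex at 24 h and 6.48, 12.2 and 10.1 CPM in sham cortex. Its groups did not overlap, as for 28.9% of all entries, and its log2 fold change was -1.06 ± 0.40 (unadjusted p = 0.0131, adjusted p = 0.0864, edgeR). It alone of the 10 had an unadjusted p under 0.05, which 24.1% of all entries had.

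miR-19a-3p passed the test against sham at 24 h with the day of surgery as a block (log2 fold change -1.07 ± 0.38, adjusted p = 0.0494, edgeR), where 18.8% of all entries passed and 4.69% passed as lower. It also passed without replicate 1 of sham (log2 fold change -1.37, adjusted p = 0.0418, edgeR), where 10.4% of all entries passed. For the abundant members the sham values lay between those of the hemispheres or near the contralateral ones. miR-92a-3p held 2664, 2984 and 2007 CPM in sham cortex, and ipsilateral cortex at 24 h against it gave a log2 fold change of -0.37 ± 0.26 (adjusted p = 0.405, edgeR). The values for miR-93-5p and miR-25-3p were -0.18 ± 0.27 and -0.42 ± 0.28, that of miR-106b-5p was -0.68 ± 0.34 (adjusted p = 0.225, edgeR), and those of the other 5 lay between -0.35 and 0.41.

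In contralateral cortex, none of the 10 passed against sham at any of the 4 times, none had an unadjusted p under 0.05 (edgeR), and no group of 3 stood apart from sham for any of them. Over all entries 0% passed at each time, while 1.77%, 2.31%, 4.35% and 2.24% had an unadjusted p under 0.05 and 6.53%, 8.71%, 11% and 7.01% had groups that did not overlap, at 3, 6, 12 and 24 h. The medians of the 10 were 0.01, 0.23, 0.11 and -0.0017 at 3, 6, 12 and 24 h, beside 0.02, -0.03, -0.04 and -0.03 over all entries. Over the abundant entries they were -0.07, 0.11, 0.24 and 0.09. In all, 1 of the 120 tests of the 10 miRNAs in the 12 pairwise comparisons had an unadjusted p under 0.05. That fit has no term for the day of surgery. With the day as a block the number was 7 (edgeR). Of these, 3 were at 24 h between the hemispheres and 3 in ipsilateral cortex at 24 h against sham. In these 2 comparisons 20% and 18.8% of all entries passed the adjusted test with the block, as did 1 of the 10 in each. The share of all entries with an unadjusted p under 0.05 was not computed with the block, so the 7 have no like background.

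The 4 times were also tested together. No member passed the joint test for a difference between the hemispheres at any time, with a smallest adjusted p of 0.593 for miR-19a-3p, while 8.98% of all entries passed (edgeR). Nor did any pass the test for a hemisphere difference that changes over time, with a smallest adjusted p of 0.966, where 0.612% of all entries passed. No member had an unadjusted p under 0.05 in either joint test, where 16% and 9.32% of all entries did. DESeq2 called none of the 10 in any pairwise or joint test, while it called 14.2% of all entries at 24 h between the hemispheres and 13.1% in ipsilateral cortex at 24 h against sham.

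Members can be compared with each other within each library, where the scaling cancels. Because miR-19b-3p and miR-92a-3p are also encoded on the X chromosome, their ratios to miR-17-5p need not be ratios within 1 cluster. At 24 h, 8 log2 ratios were compared between the hemispheres, 3 libraries against 3, by exact two-sided permutation tests that cannot give a p below 0.1. The exact p lay between 0.2 and 0.8, and all 8 adjusted values were 0.8. miR-92a-3p over miR-17-5p was 6.46 ± 0.40 in ipsilateral cortex and 7.21 ± 0.73 in contralateral cortex (SD, n = 3 each), and miR-19a-3p over miR-17-5p was -2.25 ± 0.66 in ipsilateral cortex and -1.15 ± 0.65 in contralateral cortex. Summed miR-106b/25 over summed miR-17/92 products had the smallest SDs of the 8, at -1.52 ± 0.08 in ipsilateral cortex and -1.60 ± 0.12 in contralateral cortex, and its means over the 9 groups ran from -1.70 to -1.49.

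miR-18a-5p lies between miR-17 and miR-19a on the same primary transcript. Its log2 ratio to miR-17-5p was 3.28, 1.91 and -1.39 in ipsilateral cortex at 24 h, and -1.84, -2.02 and -2.48 in contralateral cortex. All 3 ipsilateral values lay above all 3 contralateral ones (2 of 3 with a pseudocount of 5), and replicate 3 stood far below the other ipsilateral libraries. In the fit across all entries miR-18a-5p rose with a log2 fold change of 4.42 ± 0.92 (adjusted p = 0.0011, edgeR) and its X-linked counterpart miR-18b-5p rose with 2.86 ± 0.62 (adjusted p = 0.0018), while miR-18a-3p had -0.39 ± 0.51. The remaining products of the clusters, miR-18b-3p, miR-363-3p and miR-363-5p, held 63, 113 and 108 counts over all libraries and were not tested. Against sham at 24 h, miR-18a-5p had 3.92 (adjusted p = 0.0021, edgeR) and miR-18b-5p 2.59 (adjusted p = 0.0031), and without replicate 1 of ipsilateral cortex neither passed, with 2.92 (adjusted p = 0.0597) and 1.95 (adjusted p = 0.0679). These miR-18 values were known when the 10 miRNAs were chosen, so the contrast is a description.

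**Figure D3:**
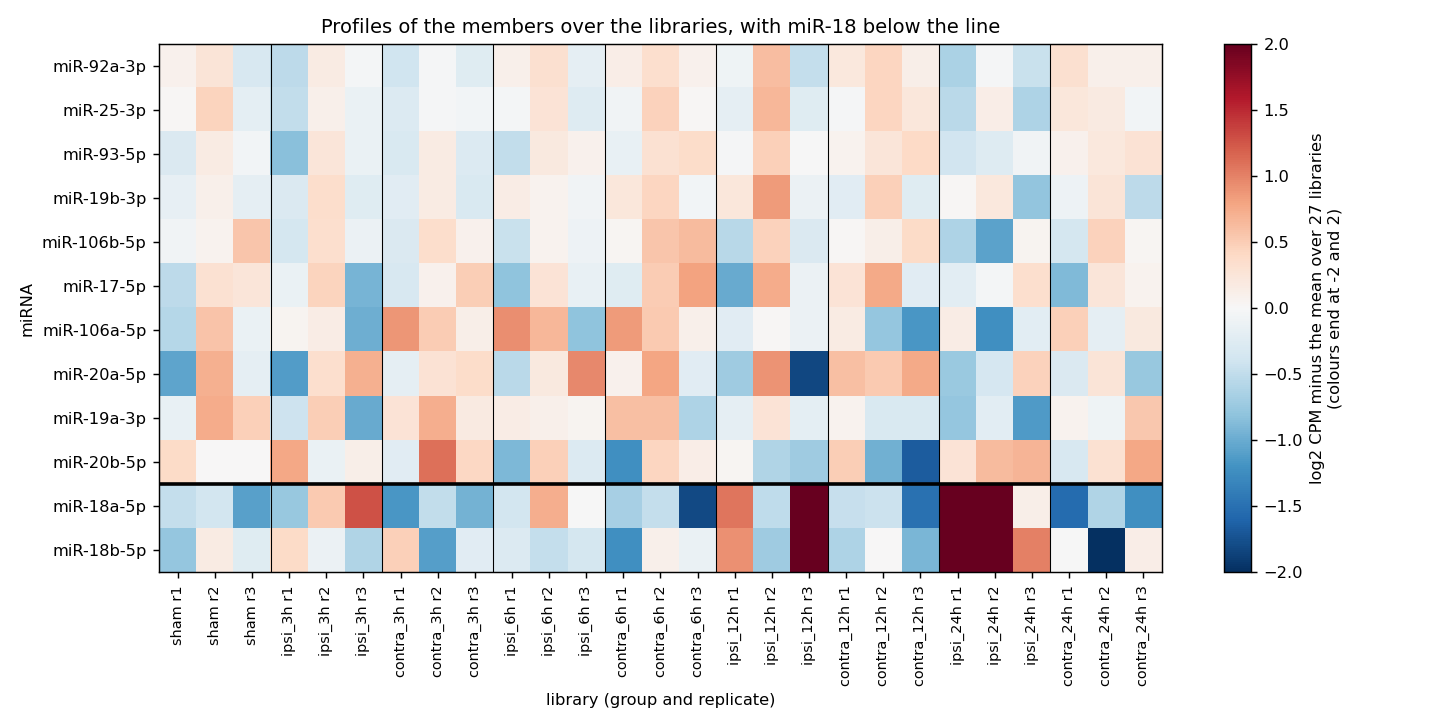
Log2 CPM of each miRNA in the 27 libraries minus its own mean, with the 10 miRNAs in order of level and miR-18a-5p and miR-18b-5p below the black line (the colour scale ends at -2 and 2). The more abundant of the 10 stay near the middle of the scale, and the 2 miR-18 rows are dark red in 2 of 3 ipsilateral libraries at 24 h and in 1 at 12 h.

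The strands opposite to the 10 on their hairpins were examined in the same way. The hairpins have 12 such entries, since miR-19b and miR-92a come from 2 hairpins each, and 9 of the 12 had enough counts to be tested. The other 3, miR-19a-5p, miR-19b-1-5p and miR-20a-3p, held 166, 161 and 85 counts over all libraries. None passed at 24 h between the hemispheres (edgeR). The highest log2 fold changes were 1.30 ± 0.51 for miR-19b-2-5p (adjusted p = 0.101) and 1.20 ± 0.44 for miR-92a-1-5p (adjusted p = 0.0786). miR-92a-1-5p held 14.3, 11.8 and 12.3 CPM in ipsilateral cortex and 3.77, 5.04 and 8.16 CPM in contralateral cortex, groups that do not overlap. miR-19b-2-5p held 84.6, 28.4 and 12.3 CPM in ipsilateral cortex, against 20.7, 15.1 and 15.2 CPM in contralateral cortex, so that 1 library with 124 counts lies behind its mean. Between the hemispheres, miR-19b-2-5p passed under 3 of 13 alternatives and miR-92a-1-5p under 2 of 13. Both passed with library totals alone and with TMM from abundant miRNAs, where 15.4% and 14.4% of all entries passed. miR-19b-2-5p also passed without replicate 3 of ipsilateral cortex (log2 fold change 1.72, adjusted p = 0.00932, edgeR). Neither passed with the day of surgery as a block or with DESeq2. The lowest log2 fold change of miR-19b-2-5p under the alternatives was 0.27. miR-20b-3p had 0.84, miR-92a-2-5p 0.72, miR-106a-3p 0.38, miR-93-3p 0.05, miR-25-5p -0.13 and miR-17-3p -0.36. The median of the 9 was 0.38, beside -0.42 for the 10, 0.08 for all entries and -0.46 for the abundant ones. The 9 had means of 6.11 to 66.4 CPM over the 27 libraries. The part of level, scaling and strand in this difference was not tested.

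Against sham at 24 h, 1 of the 9 opposite strands passed, where 12.7% of all entries did. miR-19b-2-5p was higher, with the 84.6, 28.4 and 12.3 CPM of ipsilateral cortex against 8.90, 15.7 and 10.1 CPM in sham cortex, and the groups overlap. Its log2 fold change was 1.85 ± 0.52 (adjusted p = 0.0164, edgeR), and the 9 ran from -0.65 to 1.85 with a median of 0.04. The call was made under 9 of 13 alternatives, which were run for this miRNA after seeing the data. Without replicate 1 of ipsilateral cortex the value was 0.83 (adjusted p = 0.457, edgeR), without replicate 1 of sham 1.57 (adjusted p = 0.0945) and without replicate 3 of sham 1.77 (adjusted p = 0.0672). With only the 6 libraries compared it was 1.83 (adjusted p = 0.108, edgeR).

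For 8 hairpins with 1 locus each, the share of counts on the member's strand could be given. It was 97.9% for miR-25-3p (95% Wilson interval 97.7 to 98.1, counts of 27 libraries pooled, for counting error only), 83.9% for miR-93-5p, 80.7% for miR-20a-5p and 70.2% for miR-17-5p. It was 59.0% for miR-19a-3p, 57.5% for miR-106a-5p and 52.8% (48.0 to 57.6) for miR-20b-5p. In these hairpins the member's strand was the higher one in 19, 16 and 12 of 27 libraries. miR-106b alone had fewer pooled counts on the member's strand, with 38.6% (37.0 to 40.3) on the 5p strand: miR-106b-3p held more counts than miR-106b-5p in all 27 libraries, with 2066 against 1300 counts in all. Its 5p share was 36.6% ± 10.99 in ipsilateral cortex at 24 h, 39.3% ± 8.59 in contralateral cortex at 24 h and 40.4% ± 6.84 in sham cortex (SD, n = 3 each). The 2 strands of miR-106b had similar values at 24 h, with a log2 fold change of -0.43 ± 0.26 for miR-106b-3p (adjusted p = 0.337, edgeR) and the -0.56 ± 0.34 given above for miR-106b-5p.

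**Figure D4:**
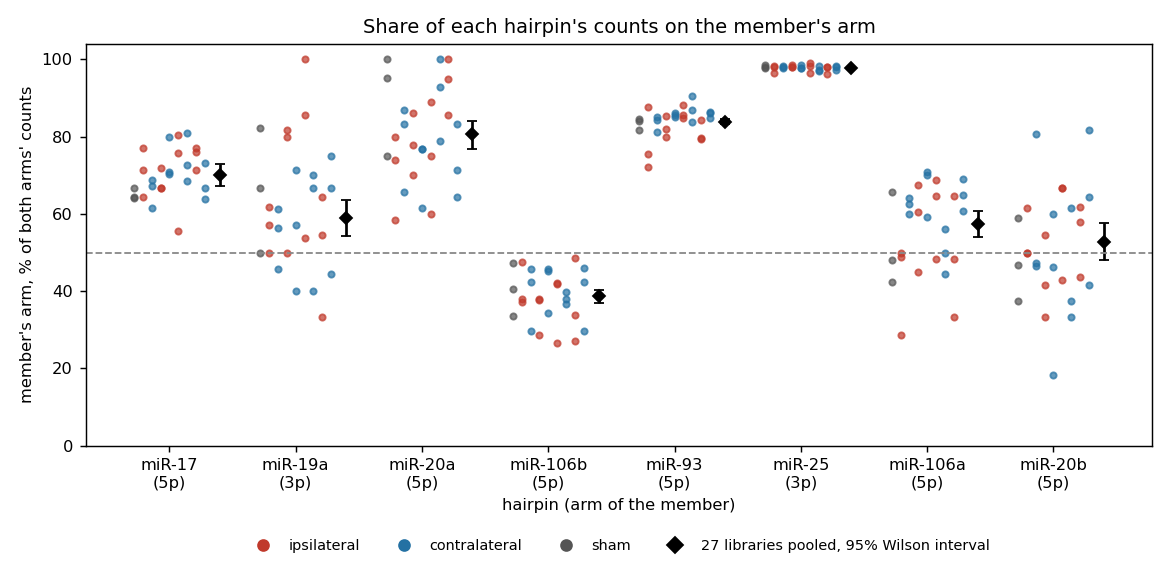
Share of the counts of each hairpin on the strand of the member, in percent of both strands, for 8 hairpins (dots: single libraries coloured by tissue; black diamonds: 27 libraries pooled with 95% Wilson intervals; dashed line: equal counts). miR-25 lies at 97.9%, miR-106b lies below the dashed line in every library (38.6% pooled), and the scarce hairpins scatter widely.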

How the data were processed

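Small RNA from mouse cortex was sequenced after Trizol extraction and TruSeq small RNA preparation (inserts of 15 to 35 bp, 69 bp single-end reads on a MiSeq), per the labels' protocols. The authors deposited 1 table of raw counts per miRNA entry, with 27 columns, all used here. Novoalign and edgeR are named without role or version in the submitters' processing notes; their genome build, miRNA annotation and treatment of reads with several matches were not given in the sources used here. Mature sequences and positions come from RefSeq and GENCODE on GRCm38.

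Entries with low counts were removed with filterByExpr (1470 of 1842 kept, with 99.9% of counts), libraries were scaled by TMM, and 1 edgeR quasi-likelihood fit with a mean per group was made over all 27 libraries (18 residual degrees of freedom), with Benjamini-Hochberg adjustment over all tested entries and a threshold of 0.05. Versions were R 4.3.3, edgeR 4.0.16 and DESeq2 1.42.0. CPM are counts relative to TMM-scaled library sizes; within-library ratios used a pseudocount of 0.5. Depth, 856591 to 1903416 counts per library, limits the precision of the scarce members.

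Replicate numbers mark the day of surgery, per the series' design text, so libraries with the same number are paired. Deviations from group means correlated at 0.286 on average over 108 pairs with the same number (93 above 0.1, lowest -0.564). Over 216 other pairs the mean was -0.142. Taking each group of 3 from its own mean pushes that second value below 0, so it is not a separate sign of pairing. The block is an alternative, as are 3 other scalings, DESeq2, no filter, only the 6 libraries compared and each library left out. All 10 members are named, with the entries of the lists of opposite strands, cluster products and seed relatives; cell type markers are given mostly as sums, with some entries named after their values were seen. The alternatives for 2 opposite strands, 2 miR-18 products and miR-211-5p were added after seeing the data. For each seed group, the 3 other miRNAs with the most similar profile are named. Members and lists were chosen with earlier results of these data known.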

Additional observations from a re-analysis of the deposited data

How the results depend on the processing

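The number of members that passed was 0 in all 12 pairwise and both joint tests with library totals alone, TMM from abundant miRNAs, DESeq2 size factors, DESeq2 and no low-count filter, and in the 12 pairwise tests with only the 6 libraries compared (where 8 to 10 of the 10 were tested, and 9 at 24 h). With the replicate block it became 1 for ipsilateral against contralateral cortex at 24 h (miR-92a-3p) and 1 for ipsilateral cortex at 24 h against sham (miR-19a-3p), and the block changed no other count. Leaving out 1 library gave 0 to 0 at 24 h against contralateral cortex and 0 to 1 against sham. The adjusted p of miR-92a-3p at 24 h ran from 0.0352 with the block to 0.899 with totals alone. DESeq2 gave an adjusted p for 7, 6 and 5 of the 10 in 3 of the comparisons at 3 and 6 h, and for 10 in the other pairwise ones.

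Log2 fold changes that changed sign are given next; the scaling shifts all entries together, and the cause of the other changes was not tested. For ipsilateral against contralateral cortex at 24 h, totals alone gave 0.47 for miR-19b-3p, 0.0514 for miR-93-5p, 0.0585 for miR-25-3p and 0.00676 for miR-106a-5p; TMM from abundant miRNAs gave 0.37 for miR-19b-3p; DESeq2 size factors gave -0.0349 and DESeq2 -0.0063 for miR-20a-5p. Against sham at 24 h, totals alone gave 0.30 for miR-20a-5p, 0.34 for miR-19b-3p, 0.20 for miR-93-5p and 0.0891 for miR-106a-5p; TMM from abundant miRNAs gave 0.16 for miR-20a-5p, 0.26 for miR-19b-3p and 0.0941 for miR-93-5p; DESeq2 size factors gave -0.0257 and DESeq2 -0.026 for miR-17-5p. Leaving out 1 library, the values against contralateral cortex ran from -0.11 to 0.41 for miR-17-5p, -0.25 to 0.20 for miR-19b-3p and -0.34 to 0.40 for miR-20a-5p, and against sham from -0.30 to 0.16, -0.25 to 0.21 and -0.56 to 0.49 for the same 3, and from -0.69 to 0.0392 for miR-106a-5p. The hemisphere difference of the log2 ratio ran from -0.62 to 0.17 for miR-19b-3p over miR-17-5p, -0.54 to 0.17 for miR-20a-5p over miR-17-5p, -0.35 to 0.57 for miR-25-3p over miR-106b-5p and -0.0934 to 0.37 for miR-93-5p over miR-106b-5p. A pseudocount of 5 changed no sign of a ratio.

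With 3 libraries a group and as few as 1 to 22 counts for the scarcest members, their 95% intervals include large changes, up to 4.10-fold for miR-20a-5p between the hemispheres. Only for miR-92a-3p, miR-93-5p and miR-25-3p did the intervals at 3 to 12 h stay within 1.72-fold.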

Other observations

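The most similar profiles over the 27 libraries were described by the mean absolute difference of centred log2 CPM, with no test. For the summed miR-92 seed members, the nearest of 283 other miRNAs with at least 100 CPM were miR-192-5p at 0.10, miR-1843a-5p at 0.12 and miR-30a-3p at 0.12, where the median over all 283 was 0.30. For the summed miR-17 seed members they were miR-26b-5p at 0.12, miR-15a-5p at 0.13 and miR-369-5p at 0.13, with a median of 0.27. For the summed miR-19 seed members they were miR-129-5p at 0.18, miR-125b-1-3p at 0.18 and miR-431-3p at 0.20, with a median of 0.35. Among the 10 themselves, the closest pair was miR-92a-3p and miR-25-3p at 0.11, which share a seed but lie on different chromosomes, and miR-106b-5p was closest to its cluster neighbour miR-93-5p at 0.23. These 4 are among the more deeply counted of the 10; the nearest member of each of the 4 scarcest lay at 0.37 to 0.60.

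The TMM-scaled level of the 4 most counted members went with the day of surgery. Replicate 2 lay above the mean of its own group in 9 of 9 groups for miR-19b-3p and miR-25-3p, and in 8 of 9 for miR-92a-3p and miR-93-5p, by 0.20 to 0.32 on the log2 scale on average. The TMM factors of the replicate 2 libraries were 0.676 to 1.18, those of replicate 1 0.928 to 1.51 and those of replicate 3 0.765 to 1.25. With library totals alone, replicate 2 lay above its group mean in 7 of 9 groups for miR-19b-3p, 6 for miR-25-3p, 5 for miR-92a-3p and 4 for miR-93-5p, and replicate 1 did so in 9 of 9 for miR-19b-3p. The mean deviation of replicate 2 with totals alone was 0.10 for miR-19b-3p, 0.07 for miR-25-3p, 0.02 for miR-92a-3p and -0.03 for miR-93-5p.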
